A study of Rattus norvegicus with 53 samples.

Results

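Akt1s1, Ptov1, Fuz, Prmt1 and Rcn3 are 5 of the 32576 genes measured in whole eyes of Heterogeneous Stock (HS) rats, and their starts lie within 240.6 kb of each other on chromosome 1. They were chosen by position, as the rows with starts at 100845563, 100865894, 100891866, 100980340 and 101086198 on Rnor_6.0, because their levels rose and fell together between these eyes. Their levels and their relations to each other are therefore given as a description, with no test. HS rats are an outbred population bred from inbred founder strains, so each rat carries its own mixture of founder chromosomes. RNA-seq libraries were made from 1 eye per rat, with the extraocular muscles removed, and 51 of the 53 eyes are analysed as a single group. Some of these rats had undergone behavioural testing and nicotine self-administration for another study, and the labels do not give which rats these were, nor the sex or age of any eye. Library totals, in expected counts, were 9109084 at the lowest, 16193478 at the median and 42146827 at the highest.

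Fuz encodes an effector of planar cell polarity that is needed to build primary cilia, the cell projections on which Hedgehog signalling and the photoreceptor outer segment depend. The genes beside it have unrelated roles. Akt1s1 encodes PRAS40, a substrate of Akt and an inhibitor of the growth-controlling kinase complex mTORC1. Ptov1 encodes an adaptor protein related to the Mediator subunit Med25. Prmt1 encodes the main enzyme that makes asymmetric dimethylarginine on histones and RNA-binding proteins. Rcn3 encodes reticulocalbin-3, a calcium-binding protein of the endoplasmic reticulum. In the RefSeq annotation of the rat assembly GRCr8, Akt1s1 comes first, and the order from Ptov1 on is Ptov1, Med25, Fuz, Ap2a1, Tsks, Cpt1c, Prmt1, Bcl2l12, Irf3, Scaf1, Rras, Prr12, Prrg2, Nosip and Rcn3. From Ptov1 to Rcn3 the genes are thus interleaved with others and not adjacent to each other. Akt1s1 and Fuz are on the plus strand, and Ptov1, Prmt1 and Rcn3 are on the minus strand.

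RefSeq promoter windows, from 250 bases before to 50 bases after the gene start on GRCr8, were found for 4 of the 5 genes. They are shown because the genes moved together, and each is written 5′ to 3′ on its own strand. Capitals mark exact matches, on either strand, to the CCAAT box, the GC box GGGCGG, the letters CCGGAAG as bound by Ets factors and the E-box CACGTG, and no match overlapped another.
Akt1s1 (chr1:104469586-104469885, plus strand): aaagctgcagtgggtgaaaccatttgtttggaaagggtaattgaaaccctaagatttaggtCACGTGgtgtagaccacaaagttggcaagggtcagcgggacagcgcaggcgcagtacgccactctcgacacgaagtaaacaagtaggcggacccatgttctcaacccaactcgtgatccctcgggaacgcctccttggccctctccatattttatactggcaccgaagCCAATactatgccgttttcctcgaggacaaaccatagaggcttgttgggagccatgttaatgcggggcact
Ptov1 (chr1:104490052-104490351, minus strand): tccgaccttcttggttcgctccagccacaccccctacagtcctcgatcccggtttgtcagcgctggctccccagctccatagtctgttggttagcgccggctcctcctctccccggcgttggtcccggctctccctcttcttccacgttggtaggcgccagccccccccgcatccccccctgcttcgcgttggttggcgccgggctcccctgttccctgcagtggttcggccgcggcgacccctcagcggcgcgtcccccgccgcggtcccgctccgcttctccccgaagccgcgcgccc
Fuz (chr1:104515826-104516125, plus strand): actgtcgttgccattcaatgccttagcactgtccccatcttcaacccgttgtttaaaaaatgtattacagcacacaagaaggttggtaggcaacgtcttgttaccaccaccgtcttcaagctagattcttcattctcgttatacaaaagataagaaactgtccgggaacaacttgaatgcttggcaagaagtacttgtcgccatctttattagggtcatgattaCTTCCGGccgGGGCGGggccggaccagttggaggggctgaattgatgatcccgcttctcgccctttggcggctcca
Prmt1 (chr1:104604496-104604795, minus strand): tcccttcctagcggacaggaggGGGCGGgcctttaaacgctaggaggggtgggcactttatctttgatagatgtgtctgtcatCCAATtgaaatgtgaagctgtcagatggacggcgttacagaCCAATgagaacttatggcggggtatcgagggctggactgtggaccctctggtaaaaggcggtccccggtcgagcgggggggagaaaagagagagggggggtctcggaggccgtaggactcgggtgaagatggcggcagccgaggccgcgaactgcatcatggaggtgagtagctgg
No motif was shared by all 4 windows. CCAAT occurred in the windows of Akt1s1 and Prmt1, and in 37.5% of all 33469 rat promoter windows of this length. GGGCGG occurred in those of Fuz and Prmt1 and in 33.1% of all windows. CCGGAAG was found only in the Fuz window among the 4, on the opposite strand (8.75% of all windows), and CACGTG only in that of Akt1s1 (6.42%). The core motif of NRF1, also searched, was in none of the 4 and in 0.852% of all windows. The Ptov1 window held none of these letters and was 71.0% G and C, against 51.7% for Akt1s1, 48.3% for Fuz, 58.7% for Prmt1 and a median of 51.7% over all windows. A match to letters is not evidence that a factor binds there.

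Levels were computed in CPM, the expected counts of an eye scaled to a total of 1000000. They are not divided by transcript length, so a level is compared only between eyes and not between genes. Fuz ranged from 7.15 CPM through a median of 15.99 CPM to 32.2 CPM, with a mean of 16.8 ± 4.995 (SD, n = 51). It was lowest in eye 9 and highest in eye 3, and these levels rested on 95.0 to 762 expected counts per eye. Akt1s1 ranged from 16.3 CPM in eye 9 to 48.1 CPM in eye 46, with a median of 29.9 CPM and a mean of 30.8 ± 7.00 (SD, n = 51). Eyes 9 and 46 were also the lowest and the highest for Ptov1, the mTORC1 inhibitor gene and the adaptor gene thus having the same extremes. Ptov1 ranged from 92.5 to 212 CPM, with a median of 158 CPM and a mean of 155 ± 24.8 (SD, n = 51). Prmt1 ranged from 45.4 CPM in eye 4 to 130 CPM in eye 39, with a median of 104 CPM and a mean of 101 ± 19.2 (SD, n = 51). Rcn3 ranged from 6.34 CPM in eye 26 to 28.1 CPM in eye 7, with a median of 14.4 CPM and a mean of 15.1 ± 4.03 (SD, n = 51). The highest eye was 4.51 times the lowest for Fuz, 4.44 times for Rcn3, 2.94 times for Akt1s1, 2.87 times for Prmt1 and 2.30 times for Ptov1. Among the 200 tested genes nearest in mean level, 69% varied less than Fuz on the log2 scale, 60% less than Prmt1, 56% less than Akt1s1, 52.5% less than Rcn3 and 30.5% less than Ptov1. In bulk tissue, fewer cells of a type and less RNA per cell cannot be told apart.

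**Figure D1:**
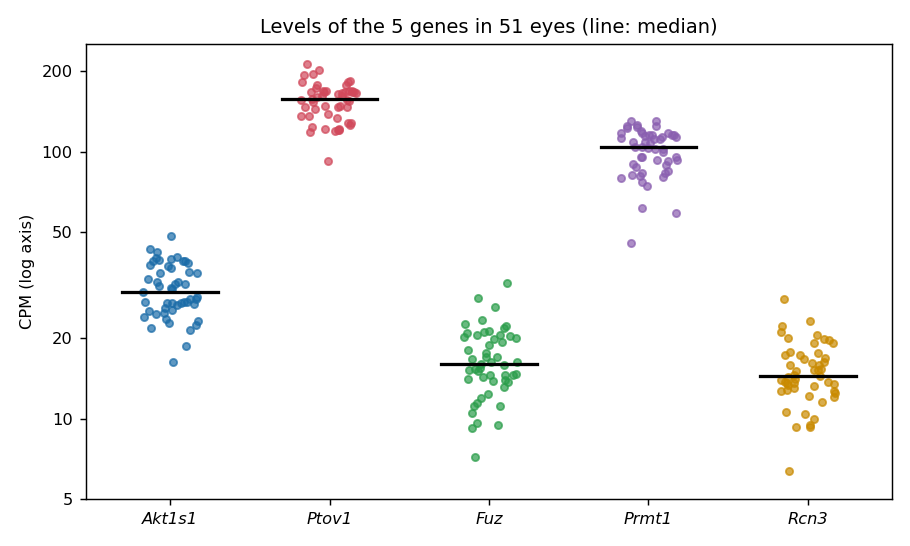
Levels of the 5 genes in the 51 eyes, in CPM on a log axis, with 1 point per eye and a line at the median. Fuz and Rcn3 spread over more than 4-fold, and Ptov1 from 92.5 to 212 CPM.

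On log2(CPM + 1), all 10 pairs of the 5 genes were positively correlated across the 51 eyes, with Pearson's r from 0.33 (Prmt1 and Rcn3) to 0.67 (Ptov1 and Fuz) and a median of 0.54. When, for each pair, the 2 eyes most distant from its first gene's median were left out, r ran from 0.16 to 0.62 with a median of 0.42. Fuz had r = 0.61 with Rcn3, 0.54 with Akt1s1 and 0.41 with Prmt1. Much of the variation between eyes was common to many genes, so the first 20 principal components of expression were then removed. The study used this number as covariates, together with genotype components, which were not used here. The 20 components carried 62.5% of the variance of Fuz, 59.4% of that of Rcn3, 68.7% of Akt1s1, 80.1% of Ptov1 and 80.5% of Prmt1, against a median of 81.2% over the 13844 genes tested. Of the tested genes, 8.08% had a smaller share than Rcn3.

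In what was left after the 20 components, r ran from 0.51 (Fuz and Rcn3) to 0.81 (Ptov1 and Prmt1), with a median of 0.62. Spearman's rho ran from 0.43 to 0.77. With the 2 most distant eyes of each pair left out in the same way, r ran from 0.43 to 0.74. The largest gains were those of Prmt1, whose r with Rcn3 went from 0.33 to 0.64, with Fuz from 0.41 to 0.68 and with Ptov1 from 0.56 to 0.81. Values of the pairs of Fuz with Ptov1, Akt1s1 and Rcn3 were slightly lower after the components, at 0.61, 0.52 and 0.51. The start-to-start distance did not set the order. Ptov1 lay 25.97 kb from Fuz and 114.4 kb from Prmt1, yet its r was higher with Prmt1. Before the components this contrast was reversed, at 0.67 with Fuz and 0.56 with Prmt1. On that scale Fuz had r = 0.61 with Rcn3, 194.3 kb away, and 0.41 with Prmt1, 88.5 kb away. A first axis through the 5 residuals held 70.4% of their variance, against 61.9% before the components were removed. Loadings on it were close to each other, from 0.42 for Fuz and Akt1s1 to 0.48 for Ptov1.

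The choice of genes fixes these values as high, and they are set beside other neighbours for scale only. Among 153463 pairs of tested genes with starts within 1 Mb of each other, the median r after the components was 0.01, and 755 pairs (0.492%) reached the r of Fuz and Rcn3, the lowest of the 10. Within 240.6 kb the share was 0.67% of 46111 pairs. For the 5 genes against tested genes of other chromosomes, it was 0.363% of 60540 pairs. Before components were removed, 25.5% of the neighbouring pairs within 1 Mb reached the lowest r of the 5 genes (0.33), so the set stood apart from other neighbours by much less on that scale.

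The number of components moved these values. The median r of the 10 pairs was 0.44 with 5 components, 0.46 with 10 and 0.45 with 30. The 51 titles fall into 39 with the commonest tag prefix and 12 with others, the meaning of which is not given. With components removed over all eyes, r ran from 0.50 to 0.80 in the 39 eyes and from 0.31 to 0.87 in the 12. Before the components, by contrast, only 8 of 10 pairs were positive in the 12 eyes, with r from -0.34 (Fuz and Prmt1) to 0.57. In the 40 eyes that kept their original label, r after the components ran from 0.50 to 0.79.

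Single eyes show the shared rise and fall. After the components, 12 eyes were above the mean in all 5 genes, 8 were below it in all 5, and 31 were mixed. Eyes 1, 19, 27 and 43 were among the 10 highest for every gene. In eye 43 the residual was 0.57 for Fuz, 0.36 for Akt1s1, 0.26 for Rcn3, 0.21 for Prmt1 and 0.17 for Ptov1 on the log2 scale. Eyes 9 and 29 were among the 10 lowest for every gene. In eye 29 the residual was -0.71 for Rcn3, -0.52 for Akt1s1, -0.31 for Fuz, -0.21 for Ptov1 and -0.21 for Prmt1. The genes did not always move together. Eye 4 was low for Rcn3 (-0.51), Akt1s1 (-0.37), Prmt1 (-0.36) and Ptov1 (-0.28) but had a Fuz residual of 0.03.

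**Figure D2:**
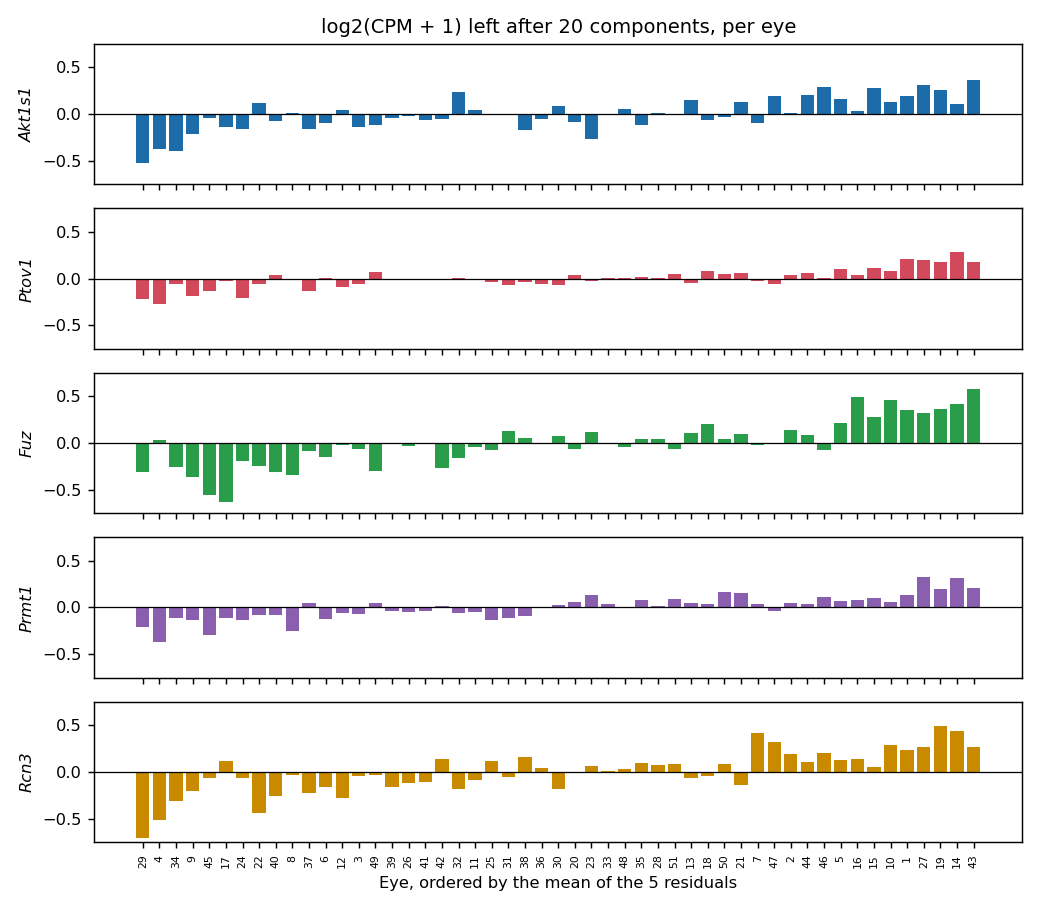
What was left of log2(CPM + 1) of each gene after 20 components, as 1 bar per eye, with the 51 eyes ordered by the mean of the 5 residuals. Eye 29 is below 0 in every gene and eye 43 above 0 in every gene, while eye 4 is low in all but Fuz.

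Neighbours that rose and fell with the 5 genes could have been chosen with them, so the direction in which the remaining neighbours moved is conditioned on that choice. Within 1 Mb of a member lay 128 other rows, of which 25 had no counts in any eye and 72, with medians of 1 CPM or more, were tested. Each tested gene was fitted on the level of each member with the 20 components as covariates (limma's moderated test, Benjamini-Hochberg adjustment over all other genes tested, of which 13839 are not among the 5). At an unadjusted p under 0.05, 10 of 69 window genes moved with Fuz (14.5%, against 4.09% of all genes tested). The counts were 13 of 66 with Akt1s1 (19.7%, against 8.32%), 15 of 68 with Ptov1 (22.1%, against 7.16%), 14 of 70 with Prmt1 (20%, against 8.42%) and 14 of 72 with Rcn3 (19.4%, against 7.29%). Most of these slopes were negative, 8 of the 10 for Fuz and 10, 11, 10 and 10 for Akt1s1, Ptov1, Prmt1 and Rcn3. Over all genes the falling share was 1.91% for Fuz, 3.79% for Akt1s1, 2.83% for Ptov1, 3.46% for Prmt1 and 3.17% for Rcn3. Since the 5 genes share their residual pattern and neighbouring genes are not independent, these are not 5 separate results.

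The fit was repeated with no components. At an adjusted p of 0.05 (limma), 5 of 69 window genes were called with Fuz (7.25%, against 7.6% of all genes), 4 of 66 with Akt1s1 (6.06%, against 13.8%), 28 of 68 with Ptov1 (41.2%, against 35.5%), 16 of 70 with Prmt1 (22.9%, against 28.8%) and 9 of 72 with Rcn3 (12.5%, against 6.58%). Most of these slopes were positive, 5 of the 5 for Fuz, 4 of 4 for Akt1s1, 27 of 28 for Ptov1 and 9 of 9 for Rcn3, but 7 of 16 for Prmt1.

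With the 20 components, 2 window genes passed after an adjustment over all genes but the member itself, each with 1 member. The other 4 members are among the genes adjusted over, and 1 of the calls rests on that. The gene with its start at 101095594, 203.7 kb from Fuz, fell as Ptov1 rose, with a slope of -1.22 ± 0.25 (SE) on the log2 scale and adjusted p = 0.0373 in limma. Over the genes other than the 5, an adjustment added after seeing the data, its adjusted p was 0.0596 (limma) and it was not called. Its level was 9.996 to 30.2 CPM, and its r with the 5 genes ran from 0.11 to 0.35 before the components and from -0.68 to -0.56 after them. The gene with its start at 101388129, 496.3 kb from Fuz, rose with Prmt1, with a slope of 0.68 ± 0.12 (SE) and adjusted p = 0.0156 in limma, or 0.0209 over the genes other than the 5. Its level was 66.5 to 399 CPM, and its r with Prmt1 was -0.33 before the components and 0.70 after them. Neither could be named. The share of all genes called after adjustment was 0.0361% with Ptov1 (0.00723% over the genes other than the 5) and 0.0217% with Prmt1, and 0 window genes were called with Akt1s1 (0.0145% of all genes), Fuz (0.00723%) or Rcn3 (0.00723%). Both calls were lost with 5, 10 or 30 components, without the 3 deepest eyes and with median-of-ratios scaling, among other alternatives.

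Of the 72 window genes, 4 (5.56%) had a negative slope at an unadjusted p under 0.05 with all 5 members, against 27 of all genes tested (0.195%), and 1 (1.39%) had a positive slope with all 5, against 19 (0.137%). The members share their residual pattern, so passing with all 5 is not 5 separate results. As said above, the direction of the remaining neighbours is conditioned on the choice of the 5. Nucb1, which encodes a calcium-binding protein of the Golgi, starts 609 kb from Fuz and was among the 4. It ranged from 116 through 152 to 199 CPM, with r of 0.00 to 0.44 before and -0.61 (Fuz) to -0.39 (Akt1s1) after the components, and its smallest adjusted p was 0.245 (limma). The genes with starts at 101095594 and 100755682 were also among them, and the gene that rose with all 5 starts at 100593680, with r of 0.42 to 0.57 after the components. The r of Nucb1 was above 0 with every member before the components and below 0 with every member after them.

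Neither Lrrc4b nor Rras passed that threshold with all 5. Lrrc4b, encoding a synaptic adhesion protein, ranged from 39.7 to 75.8 CPM and had r of -0.56 to -0.30 after the components, with an unadjusted p under 0.05 for 4 members and a smallest adjusted p of 0.242 (limma). Rras, encoding a small GTPase and lying between Prmt1 and Rcn3, ranged from 7.80 to 22.6 CPM. Before the components its r was 0.36 to 0.69, as high as between the members themselves, and 0.69 with Fuz was the highest. After the components it was 0.06 to 0.38, and the slope on Fuz had unadjusted p = 0.0332 and adjusted p = 0.999 in limma. The r of Rras was thus lower after the components than before them with each of the 5 genes.

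**Figure D3:**
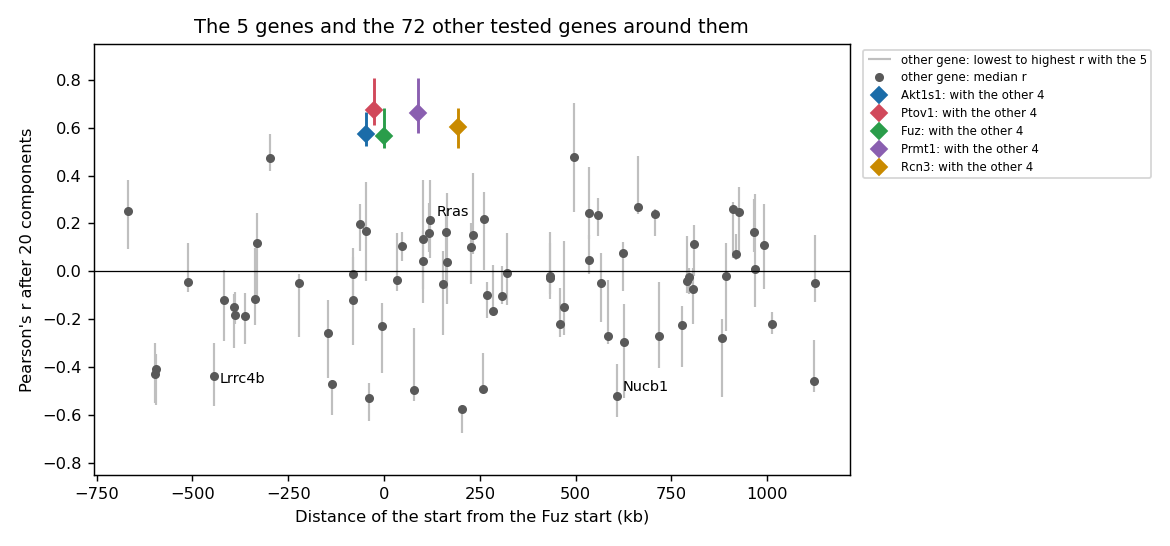
Pearson's r after 20 components for the 5 genes (diamonds, median with the other 4) and for the 72 other tested genes around them (grey points, median r with the 5), against the distance of the start from the Fuz start in kb. Vertical lines run from the lowest to the highest r. The medians of the 5 genes, which were chosen for moving together, lie above those of the other genes, but some lines overlap. Nucb1 and Lrrc4b lie below 0.

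Outside the window, 1 gene was called with every member, which is not 5 separate results since the 5 genes share their residual pattern. This unnamed gene on chromosome 14 (start 93042182 on Rnor_6.0, ENSRNOG00000004090) had a level of 0.307 CPM at the lowest, 3.96 at the median and 20.5 at the highest, with a mean of 6.16 ± 5.22 (SD, n = 51). After the components it was low where the 5 genes were high. Its residual was -0.97, -1.25, -1.25 and -1.05 in eyes 1, 19, 27 and 43, whose residuals were high for all 5 genes. In eyes 9 and 29, whose residuals were low for all 5, it was 0.62 and 1.57. In CPM the members did not all follow. Prmt1 had 84.7, 81.3 and 87.6 CPM in eyes 1, 19 and 27, against a median of 104 CPM. The chromosome 14 gene had 1.5, 2.28, 1.63 and 2.66 CPM in eyes 1, 19, 27 and 43, and 17.1 and 14.5 CPM in eyes 9 and 29. Its r after the components was -0.82 with Ptov1, -0.79 with Prmt1, -0.74 with Fuz, -0.71 with Akt1s1 and -0.71 with Rcn3. Before the components r was -0.53 with Fuz and -0.35 with Prmt1, the range over the 5.

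Its slope was -2.42 ± 0.38 (SE) per log2 unit of Fuz (adjusted p = 0.00346, limma) and -6.37 ± 0.76 per log2 unit of Ptov1 (adjusted p = 8.3e-06). On Prmt1 it was -4.82 ± 0.63 (adjusted p = 7.3e-05, limma), on Akt1s1 -3.24 ± 0.55 (adjusted p = 0.00609) and on Rcn3 -2.51 ± 0.43 (adjusted p = 0.0161). Over the genes other than the 5 it was also called with every member, at adjusted p up to 0.0161 (limma). With no components it was also called with all 5, at adjusted p from 0.0033 to 0.0356 (limma), where 13.8% of all genes were called with Akt1s1, 35.5% with Ptov1, 7.6% with Fuz, 28.8% with Prmt1 and 6.58% with Rcn3. The slope was negative in all 13 alternatives for each member, and it passed the threshold in 10 of them for Ptov1 and Fuz, 8 for Prmt1, 7 for Akt1s1 and 6 for Rcn3. Where only the genes tested or the adjustment changed, the slope is that of the main fit and could not turn. The gene was not called with any member in the 39 eyes of the commonest tag prefix or without the relabelled eyes, with components computed anew over the fewer eyes.

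The counts of this gene are set beside those of the 5 members. RSEM divides fragments that match several genes, which leaves counts that are not whole numbers. The gene on chromosome 14 had counts more than 0.01 from a whole number in 43 of 51 eyes, and so did Prmt1 in 3 of the 5 eyes in which the deposited digits can show it. Fuz and Rcn3 were whole in all 51 eyes and Akt1s1 in all 49 that could be read, and none could be read for Ptov1. RefSeq lists on GRCr8 a Prmt1-like gene, Prmt1l1, on chromosome 14 and Prmt1 pseudogenes on chromosomes 6, 9 and 17, and whether the unnamed gene is one of these copies could not be determined from the tables used here. The counts do not show with which genes the fragments of Prmt1 were shared. The level of Prmt1 is uncertain by what RSEM may have assigned to other genes. The chromosome 14 gene had 0.298% to 22.5% of its sum with Prmt1, with a median of 3.13%. When it was added to Prmt1, an alternative chosen after seeing the data, the r of Prmt1 after the components went from 0.58 to 0.32 with Akt1s1, from 0.81 to 0.59 with Ptov1, from 0.68 to 0.49 with Fuz and from 0.64 to 0.47 with Rcn3. With this sum, Ptov1 had a lower r with Prmt1 than with Fuz (0.61). The part of assignment by RSEM in the relations of the chromosome 14 gene was not tested.

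**Figure D4:**
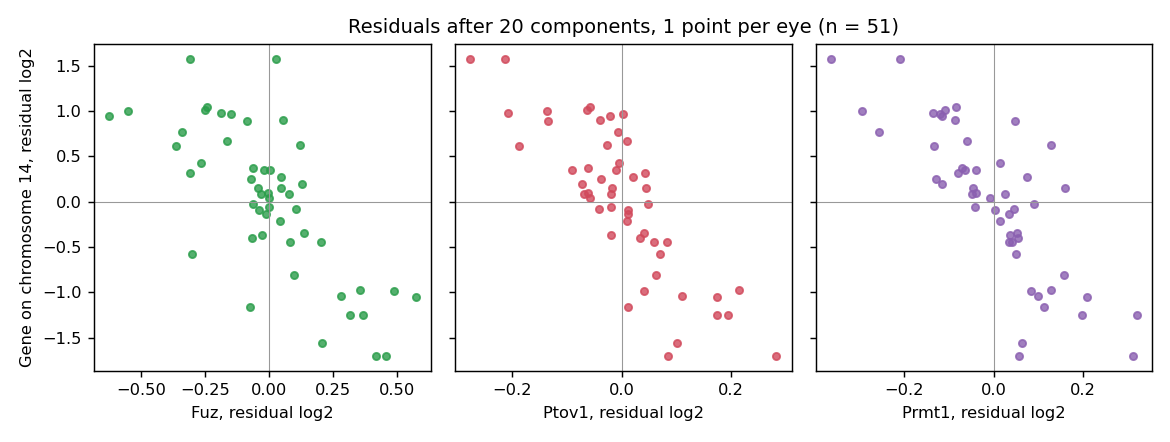
Residuals after 20 components of the gene on chromosome 14 (vertical axis, log2) against those of Fuz, Ptov1 and Prmt1 (horizontal axes, log2), with 1 point per eye in each panel. The points fall from upper left to lower right in all 3 panels, with r of -0.74, -0.82 and -0.79.

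**Figure D5:**
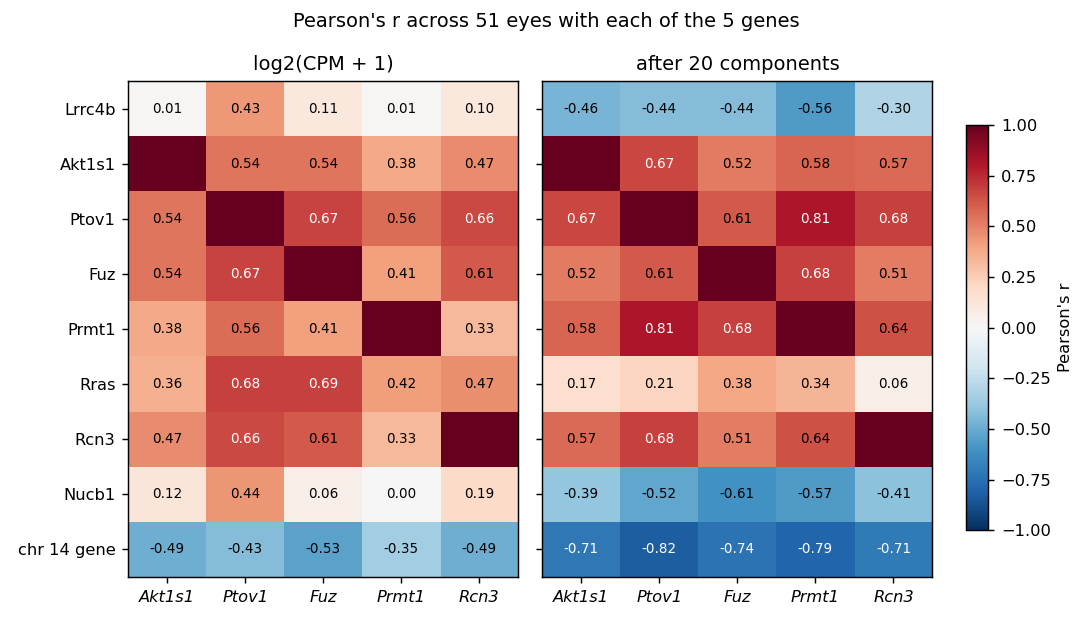
Pearson's r across the 51 eyes of each of the 5 genes with each other, with 3 named neighbours and with the gene on chromosome 14, on log2(CPM + 1) at left and after 20 components at right. Nucb1 and Lrrc4b turn from r of 0 or above at left to below 0 at right, and Rras goes from 0.36 to 0.69 at left to 0.06 to 0.38 at right.

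The pathways in which the 5 genes work could be followed only in small part. Of 157 genes in lists for cilium assembly, planar polarity, mTORC1, arginine methylation, calcium binding in the secretory pathway and Mediator, only 12 could be named in the file, and all 12 were tested. None passed with any member after the components at an adjusted p of 0.05 (limma, smallest 0.245). At an unadjusted p under 0.05 the counts were 2 of 12 for Fuz (4.09% of all genes), 2 for Prmt1 (8.42%), 2 for Rcn3 (7.29%), 1 for Akt1s1 (8.32%) and 1 for Ptov1 (7.16%). Nucb1, described above, is in these lists and accounts for 1 in each of these counts. For the cilium list the other values were those of Wdr35, an intraflagellar transport protein gene, with Fuz (r = 0.37, unadjusted p = 0.0388), and of Cc2d2a, a transition zone protein gene, with Prmt1 (r = 0.45, unadjusted p = 0.00563) and Rcn3 (r = 0.35, unadjusted p = 0.0348). Before the components these r were -0.32 for Wdr35 with Fuz, -0.42 for Cc2d2a with Prmt1 and 0.09 for Cc2d2a with Rcn3, so the first 2 changed sign. Ift22, Wdr19, Bbs12 and Tctn1, the other cilium genes that could be named, had r from 0.03 to 0.31 with Fuz after the components. Before them it ran from -0.24 (Bbs12) to 0.23 (Tctn1). Ddit4, an inhibitor of mTORC1 as Akt1s1 is, had r = 0.49 with Akt1s1 before the components and 0.32 after them (unadjusted p = 0.0665). With no components in the fit, 9 relations of these 12 genes with a member were called (limma). In that fit 13.8% of all genes were called with Akt1s1, 35.5% with Ptov1, 7.6% with Fuz, 28.8% with Prmt1 and 6.58% with Rcn3. Falling were Wdr35 with Ptov1 (r = -0.53, adjusted p = 0.000811), Bbs12, a cilium chaperonin-like gene, with Ptov1 (r = -0.50, adjusted p = 0.00101) and Prmt1 (r = -0.40, adjusted p = 0.0146), Cc2d2a with Prmt1 (adjusted p = 0.00965) and Ankrd6 with Prmt1 (r = -0.37, adjusted p = 0.0279). Rising were Ddit4 with Akt1s1 (adjusted p = 0.00477) and Ptov1 (adjusted p = 0.00313), Nucb1 with Ptov1 (adjusted p = 0.00769) and Sdf4 with Prmt1 (adjusted p = 0.0284). No gene of the arginine methylation or Mediator lists could be named.

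The 3 nameable genes nearest to each member outside the window missed the threshold too. Ptgr1, a prostaglandin reductase gene, with Rcn3 had the smallest adjusted p (0.101, limma) and r = -0.61 after the components. With Fuz the nearest were Rhpn2, Upk1b and Gramd2b, with r of -0.52, 0.50 and -0.50. Ddx39b, an RNA helicase gene, was among the 3 nearest for both Ptov1 (r = 0.53) and Prmt1 (r = 0.48).

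Of the properties of the libraries, the mitochondrial share moved with the members. Rows of the mitochondrial chromosome held 0.418% to 8.91% of counts per eye, and 45.4% of tested genes changed with that share (limma, adjusted p under 0.05), with 25.9% of tested genes falling. Akt1s1 (-0.16 ± 0.04 SE on the log2 scale per doubling of the share, adjusted p = 0.00111), Ptov1 (-0.11 ± 0.03, adjusted p = 0.00258) and Rcn3 (-0.13 ± 0.05, adjusted p = 0.0277) fell with it. Fuz (-0.12 ± 0.06, adjusted p = 0.0686) and Prmt1 (-0.03 ± 0.04, adjusted p = 0.561) did not pass. The part of this share in the relations between the 5 genes was not tested. With library depth 0 of the 5 genes were called (0.0% of all genes), the smallest unadjusted p being 0.0429 for Prmt1. Between tag prefixes 0 were called (0.253% of all genes), and Rcn3, with 14.6 ± 3.66 CPM (SD, n = 39) against 16.9 ± 4.82 CPM (SD, n = 12), had the smallest adjusted p in limma (0.439). Between the 11 relabelled eyes and the other 40, 0 were called (0.0% of all genes), with Fuz at 14.8 ± 3.79 CPM (SD, n = 11) against 17.4 ± 5.18 CPM (SD, n = 40) and adjusted p = 0.85 in limma.

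Of 31 marker genes of ocular tissues, 8 could be named and 7 were tested. Glul, of retinal Müller glia, was at 1810 to 3636 CPM in every eye, Lum, of the corneal stroma, at 0.261 to 15.9 CPM, and Hbb, of blood, at 3.71 to 88.1 CPM. None was called with any of the 5 genes after the components (limma). At an unadjusted p under 0.05, Hbb rose with Prmt1 (r = 0.42, unadjusted p = 0.00962), Rcn3 (r = 0.33, unadjusted p = 0.0425) and Ptov1 (r = 0.33, unadjusted p = 0.048), with adjusted p from 0.415 to 0.685, and the part of blood in their relations was not tested. With no components, 28.8% of all genes were called with Prmt1 and 35.5% with Ptov1. In that fit Glul rose with Prmt1 (r = 0.61, adjusted p = 0.0012 in limma) and Ptov1 (r = 0.43, adjusted p = 0.0244), and Rab38, of pigment cells, rose with Prmt1 (r = 0.37, adjusted p = 0.0264). Tyr, the other pigment cell gene tested, did not, with r = -0.07 with Prmt1 (adjusted p = 0.747 in limma). Neither Glul nor Rab38 was called with Fuz, Akt1s1 or Rcn3, and the part of these cells in the relations was not tested.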

How the data were processed

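Whole-eye RNA from 53 HS rats was sequenced as 150-base paired-end reads, and 51 eyes are analysed here. Per the labels and the study's methods, the authors aligned reads to Rnor_6.0 with STAR, matched samples to genotypes with GATK and counted with RSEM. Neither tool versions nor an annotation release is given in the sources used here. The authors deposited log2 values of the expected count plus 1, a unit read from the data: 89.8% of those between 0.5 and 50, with the log2 undone, lay within 0.01 of a whole number. The study names another unit, inverse normal TPM, for its eQTL fit.

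Counts were scaled to 1000000 per eye and taken as log2(CPM + 1), with a pseudocount of 1. The 13844 genes tested had medians of 1 CPM or more and were fitted together. Components are the first 20 principal components of inverse normal values, over the 20190 genes with a count in any eye, which leaves 29 degrees of freedom in a fit. Slopes and two-sided p-values, adjusted over all tested genes but the one fitted on, are from limma 3.58.1 (R 4.3.3), its prior variance following the mean level, and r is given with no p. Other steps used Python 3.11.15. The methods were tested on simulated data.

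Genes were named only where their start matched one implied by the study's eQTL table (778) or lay within 500 bp of one in its gene table (7). The text names the 5 members, nameable genes within 1 Mb except for a result not reported here, the 3 nameable genes with the smallest p outside it for each member, nameable list genes and at most 4 unnamed window genes. The unnamed gene on chromosome 14 was singled out after its values were seen. The members and lists were chosen with earlier results of these data known. Alternatives in scaling, pseudocount, filter, components, eyes and window were tried. Nothing in the sources used here says whether eyes were handled in batches. The 2 eyes removed by the authors are not analysed here.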

Additional observations from a re-analysis of the deposited data

How the results depend on the processing

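The median r of the 10 pairs of the 5 genes, 0.62 with 20 components, was 0.44 with 5 components, 0.46 with 10 and 0.45 with 30. With components computed anew, it was 0.51 without the relabelled eyes and 0.43 in the eyes of the commonest tag prefix alone. In these same 2 sets of eyes, with the components removed over all 51 eyes, an alternative chosen after seeing the data, it was 0.60 and 0.66. Other scalings, pseudocounts and filters on eyes left it within its spread. It stayed above 0 in each alternative run. Slopes of other genes could turn with the components: that of the gene at 101388129 on Prmt1 was 0.68 with them and -0.68 without.

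The counts of genes called with each member rest on few calls: 2 for Akt1s1, 5 for Ptov1, 1 for Fuz, 3 for Prmt1 and 1 for Rcn3 with 20 components. The numbers with 5 components were 0 for Akt1s1, 1 for Ptov1, 0 for Fuz and 0 for Rcn3, those with 10 were 0 for Akt1s1, 1 for Ptov1, 0 for Prmt1 and 2 for Rcn3, and those with 30 were 0 for Akt1s1, Ptov1, Prmt1 and Rcn3. Adjusted over the genes other than the 5, also chosen after seeing the data, 1 gene was called with Ptov1 and 0 within 1 Mb of it, because the other 4 members no longer lower the adjusted values, and the counts of the others did not change. Without the relabelled eyes, and in the eyes of the commonest tag prefix alone, 0 genes were called with Akt1s1, Ptov1, Fuz, Prmt1 or Rcn3. These fits have fewer eyes for the same 20 components. Median-of-ratios scaling gave 1 call each for Akt1s1, Ptov1 and Prmt1, and no scaling gave 1, 3 and 1. Without the 3 deepest eyes the calls were 1 for Ptov1, 1 for Prmt1 and 0 for Rcn3. With all genes above 0 in any eye tested, they were 1 for Ptov1 and 0 for Rcn3. With inverse normal values, chosen after seeing the data, they were 2 for Ptov1, 2 for Fuz and 1 for Prmt1. The other rows within 1 Mb called with Ptov1, 1 with 20 components, were 0 in all of these settings (5, 10 or 30 components, both scalings, without the relabelled eyes, without the 3 deepest eyes, the commonest tag prefix, all genes above 0 in any eye, inverse normal values). Those called with Prmt1, also 1, were 0 in the same settings except with all genes above 0 in any eye. Apart from the eyes left out and the genes tested, the cause was not tested. Windows of 0.5 and 2 Mb left the numbers of rows called after adjustment with 20 components unchanged. Among single genes, 92 slopes kept their direction but lost their call under an alternative.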
